A study of Mus musculus with 6 samples.

Results

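The laminin chain and integrin subunit genes were followed in mouse kidney cells that bind the lectin DBA. Members were all gene symbols that name a laminin α, β or γ chain (*Lama*, *Lamb* and *Lamc*) or an integrin α or β subunit (*Itga* and *Itgb*). They came to 37 of the 55367 symbols in each library, with 11 laminin chains, 18 integrin α subunits and 8 integrin β subunits. RNA-seq covered bulk DBA-positive cells labelled Day115 in every group, with 2 libraries each for WT, ADPKD and ADPKD+MMPP. The study asked how MMPP, a PEG-containing melanin-like nanoparticle with chelated manganese, acts on cyst-forming kidney tubules. DBA is a plant lectin that binds collecting duct epithelium.

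The WT libraries came from kidneys of mice of the WT genotype given saline. The ADPKD libraries came from male *Pkd1*fl/fl;*Cre/Esr1*+ mice, in which tamoxifen given in the weeks after birth activated the Cre recombinase and deleted *Pkd1*, and these mice were given saline. The ADPKD+MMPP libraries came from mice of that ADPKD genotype that received repeated intravenous MMPP in place of saline. The Cre was tamoxifen-dependent and is not described as limited to collecting duct cells. Strain and whether the WT mice carried the Cre or received tamoxifen are not given in the sources used here. Nothing in them says that the libraries of a group came from separate animals, so p-values measure only the spread between these libraries, which may be technical.

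*Pkd1*, the deleted gene, lies on chromosome 17 from 24549834 to 24596508 (GRCm38, GENCODE vM21). It had 17.7 and 17.2 FPKM in WT, 7.64 and 8.91 FPKM in ADPKD, and 4.34 and 3.99 FPKM in ADPKD+MMPP, where FPKM is fragments per kilobase of exon, scaled to the size of the library. The WT libraries were the highest and no group overlapped another. *Pkd1* RNA from outside the deleted exons is counted as well, so these levels do not measure how many cells had lost the gene.

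The libraries were not made alike. Read numbers recovered from low values put the depth at 30.6 M and 31.0 M reads for WT, 33.1 M and 32.1 M for ADPKD, and 11.8 M and 10.9 M for ADPKD+MMPP. Odd read numbers made up 37.4% and 38.2% of low values in WT, 37.5% and 39.1% in ADPKD, and 8.74% and 8.27% in ADPKD+MMPP. Since that difference separates the treated libraries from all others, handling of the reads and MMPP treatment cannot be told apart, and the comparison of ADPKD with WT is given first.

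Laminins are secreted trimers of an α, a β and a γ chain that build the basement membrane under an epithelium. Integrins are cell surface dimers of an α and a β subunit that bind laminin, collagen, fibronectin or ligands on other cells and link them to the actin or keratin skeleton. In the kidney, α3β1 and α6β1 are laminin receptors of tubule cells, α8β1 acts in nephron formation and marks mesangial cells, and integrins built on β2 are restricted to leukocytes.

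The labelled cell type was checked against its markers. The gene named as leading a marker list is the most abundant over all libraries together, and other genes could lead in single libraries. Of the 8 principal cell markers of the collecting duct, led by *Aqp2* in every library, 7 passed the filter, and the summed level was 2079 and 2776 FPKM in WT, 2482 and 942 FPKM in ADPKD, and 5417 and 5441 FPKM in ADPKD+MMPP, with *Avpr2* under 0.06 FPKM throughout and at 0 in ADPKD replicate 2. The 7 intercalated cell markers, led by *Atp6v1b1*, summed to 294 and 317 FPKM in WT, 76.3 and 32.9 FPKM in ADPKD, and 233 and 234 FPKM in ADPKD+MMPP, and all 7 were called lower in ADPKD against WT. Principal cell markers thus led every library, and markers of other nephron segments were present beside them. The 10 proximal tubule markers, led by *Aqp1*, summed to 466 and 283 FPKM in WT, 345 and 199 FPKM in ADPKD, and 1178 and 1212 FPKM in ADPKD+MMPP. The 5 markers of the thick limb and distal convoluted tubule, led by *Umod*, summed to 1259 and 486 FPKM in WT, 600 and 184 FPKM in ADPKD, and 187 and 185 FPKM in ADPKD+MMPP, with *Pvalb* at 0 in ADPKD replicate 2. These are bulk cells, so fewer cells of a type and less RNA per cell cannot be told apart.

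In ADPKD against WT, the chains and subunits that rose included the epithelial laminin chains *Lama5*, *Lamb1*, *Lamb3* and *Lamc1*, the epithelial integrin subunits *Itga6*, *Itgav*, *Itgb4* and *Itgb6*, and the myeloid subunits *Itgam*, *Itgax* and *Itgb2*. *Lamb2*, *Itga8* and the epithelial subunit *Itgb5*, each above 100 FPKM in WT, fell, as did *Itga9* and the leukocyte subunits *Itga4* and *Itgb7*. A call required an unadjusted P under 0.05 in limma and a fold of 1.5 or more on log2(FPKM + 1), a scale that shrinks changes of low genes. Of the 33 members that passed the filter, which asked for 1 FPKM or more in 2 or more libraries, 13 were called higher, where 14.2% of the 14862 genes tested were, and 6 were called lower, where 12.5% of genes were. The median log2 fold change was 0.21 over these members and 0.03 over all genes tested. All 19 calls also had a Benjamini-Hochberg adjusted p under 0.05. The other 4 members, *Itga11*, *Itgad*, *Itgae* and *Itgal*, did not reach 1 FPKM in any library. *Itgam* passed the filter through the ADPKD libraries alone and *Lama1* through the ADPKD+MMPP libraries alone, so each had to be highest there.

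Among the laminin α chains, *Lama5* encodes the main α chain of mature tubule and glomerular basement membranes and lies on chromosome 2 from 180176373 to 180225859. It had 109 and 105 FPKM in WT, 168 and 238 FPKM in ADPKD, and 248 and 247 FPKM in ADPKD+MMPP. Both ADPKD libraries lay above both WT libraries, and the ADPKD+MMPP libraries lay above all others. Its log2 fold change of ADPKD over WT was 0.89 (standard error 0.18, limma adjusted p = 0.0203). *Lama5* made up 89.3% and 91.3% of the summed α chain FPKM in WT, 91.1% and 90.0% in ADPKD, and 95.3% and 95.7% in ADPKD+MMPP, so it was the leading α chain per length in each library.

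*Lama2*, the α chain of muscle and other mesenchymal basement membranes, had 0.758 and 1.08 FPKM in WT, 3.77 and 3.76 FPKM in ADPKD, and 1.14 and 0.911 FPKM in ADPKD+MMPP. The ADPKD libraries were the highest and nearly equal, and the other groups overlapped. Its log2 fold change of ADPKD over WT was 1.32 (standard error 0.14, limma adjusted p = 0.00411). *Lama1*, the α chain of embryonic and some tubule basement membranes, had 0.588 and 0.497 FPKM in WT, 0.915 and 0.380 FPKM in ADPKD, and 2.82 and 3.16 FPKM in ADPKD+MMPP. WT and ADPKD overlapped, and the treated libraries stood above them.

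*Lama3*, the α chain of the epidermal type of laminin, had 8.01 and 5.96 FPKM in WT, 7.36 and 19.1 FPKM in ADPKD, and 4.71 and 3.59 FPKM in ADPKD+MMPP. ADPKD replicate 2 was far above the rest, while replicate 1 lay between the WT libraries, and the fold change of 0.71 on the log2 scale was not called. Leaving out ADPKD replicate 1 gave 1.35 and a call. *Lama4*, the α chain of vessel walls, lay between 2.44 and 4.36 FPKM in the 6 libraries, with WT and ADPKD overlapping and no call in any comparison on FPKM as deposited.

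The laminin β chains changed in opposite directions. *Lamb2*, the β chain of mature glomerular and vessel basement membranes, at 108479736 to 108490530 on chromosome 9, had 104 and 113 FPKM in WT, 52.3 and 52.6 FPKM in ADPKD, and 79.4 and 80.6 FPKM in ADPKD+MMPP. *Lamb1*, the β chain that precedes it in development, at 31265234 to 31329644 on chromosome 12, had 33.3 and 29.7 FPKM in WT, 72.2 and 56.2 FPKM in ADPKD, and 0.581 and 0.518 FPKM in ADPKD+MMPP. *Lamb3*, the β chain of the epidermal type of laminin, at 193207699 to 193343878 on chromosome 1, had 1.16 and 1.07 FPKM in WT, 6.97 and 15.1 FPKM in ADPKD, and 1.46 and 1.14 FPKM in ADPKD+MMPP. For each of these genes ADPKD and WT did not overlap, and ADPKD was lower for *Lamb2* and higher for *Lamb1* and *Lamb3*.

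The log2 fold change of ADPKD over WT was -1.04 for *Lamb2* (standard error 0.11, limma adjusted p = 0.00439), 0.995 for *Lamb1* (standard error 0.16, limma adjusted p = 0.0102) and 2.42 for *Lamb3* (standard error 0.33, limma adjusted p = 0.00661). The sum over the 3 β chains was 139 and 144 FPKM in WT and 131 and 124 FPKM in ADPKD. *Lamb2* gave 75.2% and 78.6% of that sum in WT and 39.8% and 42.4% in ADPKD, while *Lamb1* gave 24.0% and 20.7% in WT and 54.9% and 45.3% in ADPKD. The leading β chain per length was thus *Lamb2* in WT and *Lamb1* in ADPKD, though in ADPKD replicate 2 the pair lay close together.

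Among the γ chains, *Lamc1*, the partner of most laminin α and β chains, had 31.9 and 29.9 FPKM in WT, 55.0 and 58.4 FPKM in ADPKD, and 70.4 and 70.6 FPKM in ADPKD+MMPP. It was higher in each ADPKD library than in either WT library, and highest after treatment. *Lamc1* lies on chromosome 1 from 153218922 to 153332786, and ADPKD over WT gave a log2 fold change of 0.86 (standard error 0.11, limma adjusted p = 0.00641). *Lamc3*, a γ chain of nerve and reproductive tissue, had 1.299 and 1.73 FPKM in WT, 1.99 and 0.993 FPKM in ADPKD, and 0.751 and 0.451 FPKM in ADPKD+MMPP. WT and ADPKD overlapped for *Lamc3*, and the treated libraries were the lowest.

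**Figure D1:**
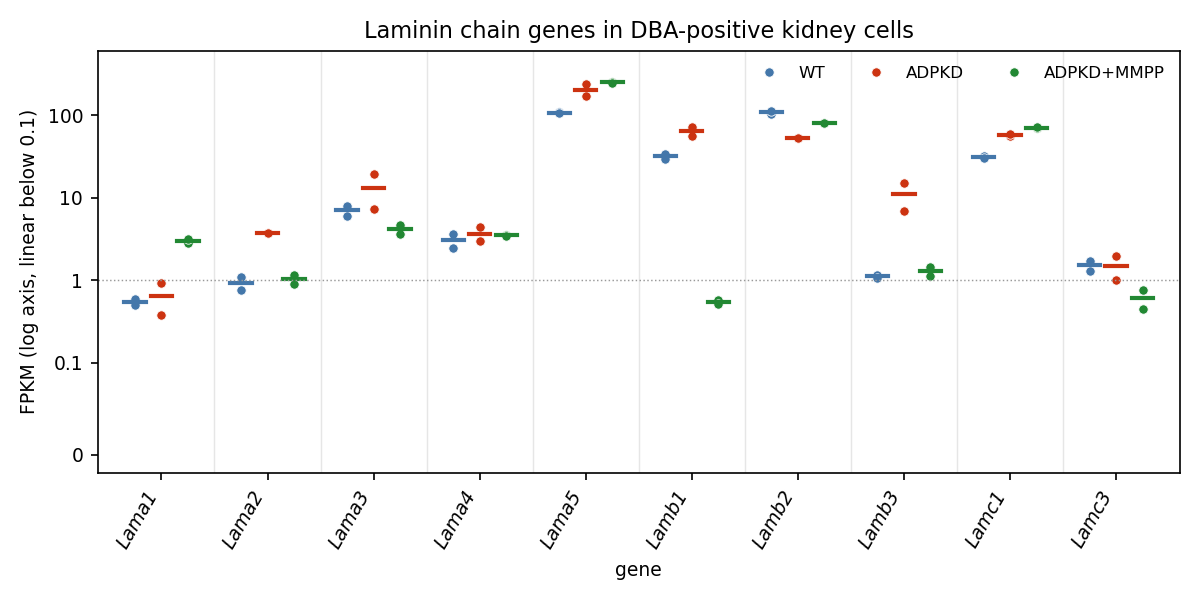
FPKM (log axis, linear below 0.1) of laminin chain genes in WT, ADPKD and ADPKD+MMPP, with a point for each library and a bar at the mean of the 2 libraries of a group. *Lamb2* is lower and *Lamb1*, *Lamb3*, *Lamc1*, *Lama2* and *Lama5* are higher in ADPKD than in WT, and *Lamb1* is below 1 FPKM in the ADPKD+MMPP libraries.

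Of the laminin-binding integrin α subunits, *Itga6* pairs with β1 or, in hemidesmosomes, with β4. It had 16.5 and 14.3 FPKM in WT, 39.8 and 44.8 FPKM in ADPKD, and 37.1 and 39.3 FPKM in ADPKD+MMPP. The WT libraries were low and the other 4 were high, with ADPKD just above ADPKD+MMPP. Its log2 fold change of ADPKD over WT was 1.40 (standard error 0.13, limma adjusted p = 0.00352), and *Itga6* lies on chromosome 2 from 71745616 to 71858416.

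*Itga3*, the α subunit of a laminin receptor of tubule cells and podocytes, had 89.3 and 93.7 FPKM in WT, 71.0 and 75.9 FPKM in ADPKD, and 1.84 and 1.89 FPKM in ADPKD+MMPP. Each ADPKD library lay below both WT libraries, but the log2 fold change of -0.31 did not reach the fold required for a call. *Itga7*, the laminin receptor subunit of muscle, had 9.05 and 7.28 FPKM in WT, 7.82 and 7.85 FPKM in ADPKD, and 1.34 and 1.47 FPKM in ADPKD+MMPP. WT and ADPKD overlapped, and the treated libraries were far below them.

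None of the 3 collagen-binding α subunits tested was called in ADPKD against WT. *Itga1* had 10.6 and 7.97 FPKM in WT, 8.68 and 5.10 FPKM in ADPKD, and 13.5 and 12.7 FPKM in ADPKD+MMPP. *Itga2* had 1.28 and 1.29 FPKM in WT, 1.91 and 6.81 FPKM in ADPKD, and 12.6 and 13.8 FPKM in ADPKD+MMPP. For both of these neighbours on chromosome 13 the treated libraries were the highest, and the ADPKD libraries differed from each other by more than the WT libraries did. Without ADPKD replicate 1 the log2 fold changes of ADPKD over WT were -0.74 for *Itga1* and 1.77 for *Itga2*, and both were then called. *Itga10*, a collagen receptor subunit of cartilage, had 1.09 and 1.68 FPKM in WT, 0.635 and 1.18 FPKM in ADPKD, and 0.0327 and 0.177 FPKM in ADPKD+MMPP, and 33.5% of its exon bases lie in another annotated gene on the same strand, so its values are uncertain. *Itga11*, a collagen receptor subunit of fibroblasts, had 0.121 and 0.157 FPKM in WT, 0.760 and 0.979 FPKM in ADPKD, and 0.330 and 0.107 FPKM in ADPKD+MMPP, below the filter in each library.

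The RGD-binding α subunits recognise fibronectin, vitronectin, osteopontin and nephronectin. *Itga8*, the subunit of mesangial and smooth muscle cells, at 12106632 to 12301922 on chromosome 2, had 135 and 118 FPKM in WT, 22.9 and 3.88 FPKM in ADPKD, and 1.40 and 1.27 FPKM in ADPKD+MMPP. It was the most abundant α subunit per length in WT, and every ADPKD library was below every WT library, although the ADPKD libraries differed from each other several times over. Its log2 fold change of ADPKD over WT was -3.56 (standard error 0.69, limma adjusted p = 0.0173).

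*Itgav*, the α subunit of the vitronectin and TGF-β-activating integrins, had 15.8 and 16.8 FPKM in WT, 33.5 and 41.9 FPKM in ADPKD, and 3.65 and 3.59 FPKM in ADPKD+MMPP. The groups did not overlap, with ADPKD the highest, and the log2 fold change of ADPKD over WT was 1.16 (standard error 0.14, limma adjusted p = 0.00551). *Itga5*, the fibronectin receptor subunit, had 31.8 and 29.3 FPKM in WT, 33.9 and 58.4 FPKM in ADPKD, and 2.92 and 2.49 FPKM in ADPKD+MMPP. Its log2 fold change of ADPKD over WT was 0.53 without a call, and leaving out ADPKD replicate 1 gave 0.91 and a call. *Itga2b*, the platelet fibrinogen receptor subunit, lay between 1.29 and 1.75 FPKM in the 6 libraries and was called in no comparison on FPKM as deposited. Beside it, the 6 platelet markers, led by *Pf4*, with *Gp1bb* at 0 in all libraries, *Gp9* at 0 in both ADPKD+MMPP libraries and *Gp6* at 0 in 4 libraries, summed to 3.10 and 3.25 FPKM in WT, 11.8 and 30.8 FPKM in ADPKD, and 17.0 and 24.6 FPKM in ADPKD+MMPP.

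Both members of the related pair of α4 and α9 subunits fell in ADPKD against WT. *Itga9*, a receptor subunit for tenascin and osteopontin, had 22.1 and 19.97 FPKM in WT, 8.51 and 6.52 FPKM in ADPKD, and 5.48 and 5.93 FPKM in ADPKD+MMPP. *Itga4*, the VCAM-binding subunit of lymphocytes and some mesenchymal cells, had 5.84 and 4.30 FPKM in WT, 1.38 and 0.379 FPKM in ADPKD, and 0.951 and 1.11 FPKM in ADPKD+MMPP. The WT libraries were the highest for each gene, and ADPKD and ADPKD+MMPP overlapped for *Itga4*. The log2 fold change of ADPKD over WT was -1.38 for *Itga9* (standard error 0.16, limma adjusted p = 0.00465) and -1.73 for *Itga4* (standard error 0.28, limma adjusted p = 0.0105).

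In ADPKD against WT, markers of podocytes and of smooth muscle and mesangium were lower, as were *Itga8*, *Itga9* and *Lamb2*. The 6 podocyte markers, led by *Podxl*, summed to 925 and 1272 FPKM in WT, 211 and 92.2 FPKM in ADPKD, and 89.7 and 87.2 FPKM in ADPKD+MMPP, and all 6 were called lower in ADPKD against WT, with *Ptpro* at 0 in the treated libraries. After treatment 4 of them and *Itga8* were called lower still, *Itga9* was not called, and *Lamb2* was called higher on FPKM as deposited. When centred, *Itga8* and *Lamb2* were not called and *Itga9* was called lower. The 6 markers of smooth muscle and mesangium, led by *Acta2* and in WT by *Pdgfrb*, summed to 195 and 151 FPKM in WT, 92.6 and 83.6 FPKM in ADPKD, and 98.9 and 91.2 FPKM in ADPKD+MMPP, and 4 of the 5 tested were called lower in ADPKD. Glomerular RNA was therefore present in WT and lower in ADPKD, and its part in the lower *Itga8*, *Itga9* and *Lamb2* was not tested. Of the 7 endothelial markers, led by *Plvap*, 6 were called lower and *Plvap* higher, with sums of 879 and 728 FPKM in WT, 528 and 546 FPKM in ADPKD, and 321 and 349 FPKM in ADPKD+MMPP. The 6 fibroblast markers, led by *Col1a1* though not in WT, moved with *Lama2* in ADPKD against WT, with 5 called higher and sums of 14.1 and 18.5 FPKM in WT, 114 and 141 FPKM in ADPKD, and 162 and 170 FPKM in ADPKD+MMPP. Their part in the higher *Lama2* was not tested.

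The β subunits were led by *Itgb1*, the partner of most α subunits, which had 236 and 225 FPKM in WT, 206 and 225 FPKM in ADPKD, and 102 and 100.8 FPKM in ADPKD+MMPP. The nearest libraries of WT and ADPKD were almost equal, and the log2 fold change of -0.10 was not called. *Itgb4*, the hemidesmosome partner of α6, had 8.05 and 6.71 FPKM in WT, 20.1 and 30.04 FPKM in ADPKD, and 0.966 and 0.627 FPKM in ADPKD+MMPP. *Itgb6*, the epithelial partner of αv that activates TGF-β, had 1.84 and 1.58 FPKM in WT, 6.53 and 8.72 FPKM in ADPKD, and 15.2 and 15.5 FPKM in ADPKD+MMPP. *Itgb4* was highest in ADPKD and *Itgb6* in ADPKD+MMPP, and neither gene overlapped between WT and ADPKD.

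In ADPKD against WT, the log2 fold change was 1.62 for *Itgb4* (standard error 0.22, limma adjusted p = 0.00704) and 1.66 for *Itgb6* (standard error 0.16, limma adjusted p = 0.00351). *Itgb5*, the vitronectin-binding partner of αv, had 101 and 129.9 FPKM in WT, 70.8 and 55.7 FPKM in ADPKD, and 1.29 and 1.496 FPKM in ADPKD+MMPP. Its libraries did not overlap between any groups, and its log2 fold change of ADPKD over WT was -0.85 (standard error 0.19, limma adjusted p = 0.0245). Of the genes for αv and its partners, *Itgav* and *Itgb6* thus rose and *Itgb5* fell.

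*Itgb8*, another TGF-β-activating partner of αv, had 2.11 and 3.32 FPKM in WT, 3.04 and 2.72 FPKM in ADPKD, and 15.5 and 15.4 FPKM in ADPKD+MMPP. *Itgb3*, the partner of αv and of the platelet subunit, had 3.90 and 4.26 FPKM in WT, 1.92 and 4.11 FPKM in ADPKD, and 1.44 and 1.40 FPKM in ADPKD+MMPP. WT and ADPKD overlapped for both genes and no call was made, but without ADPKD replicate 2 the log2 fold change of *Itgb3* was -0.80 and called. The treated libraries were the highest for *Itgb8* and the lowest for *Itgb3*.

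The leukocyte integrin subunits were scarce in all libraries, and 5 of the 8 were tested. *Itgb2*, the β subunit shared by the leukocyte integrins of its name, had 1.32 and 1.21 FPKM in WT, 5.72 and 11.0 FPKM in ADPKD, and 4.27 and 5.17 FPKM in ADPKD+MMPP. *Itgax*, the α subunit known as CD11c, had 0.565 and 0.511 FPKM in WT, 2.81 and 1.85 FPKM in ADPKD, and 6.74 and 8.01 FPKM in ADPKD+MMPP. *Itgam*, the α subunit known as CD11b, had 0.176 and 0.122 FPKM in WT and 1.15 and 2.92 FPKM in ADPKD, and each ADPKD+MMPP library listed it at 0. All 3 genes were higher in each ADPKD library than in either WT library. After treatment *Itgax* was at its highest while *Itgam*, its neighbour on chromosome 7, was at 0.

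The log2 fold change of ADPKD over WT was 1.99 for *Itgb2* (standard error 0.28, limma adjusted p = 0.00721) and 1.10 for *Itgax* (standard error 0.18, limma adjusted p = 0.0104). For *Itgam* it was 1.34 (standard error 0.28), and no p-value is given because the gene passed the filter only through the ADPKD libraries, though it is among the 13 higher calls and stayed called with no filter. The *Itgam* values are uncertain, because 68.7% of its exon bases lie in another annotated gene on the same strand, which a count of reads on genes may have discarded or shared. *Itgb7*, the β subunit of gut-homing lymphocytes, had 2.21 and 2.34 FPKM in WT, 1.23 and 1.002 FPKM in ADPKD, and 2.20 and 2.32 FPKM in ADPKD+MMPP. It was lowest in ADPKD, with a log2 fold change against WT of -0.63 (standard error 0.12, limma adjusted p = 0.0160) that became -0.55 and lost its call without ADPKD replicate 2. Among the subunits below the filter, *Itgae*, the partner of β7, lay between 0.0776 and 0.840 FPKM, *Itgal*, the lymphocyte partner of β2, between 0 and 0.433 FPKM, and *Itgad* was listed at 0 in all 6 libraries, with 19.7% of its exon bases in other genes.

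Leukocyte markers were present beside these subunits. The 8 macrophage markers, led by *C1qa*, summed to 81.1 and 77.7 FPKM in WT, 345 and 423 FPKM in ADPKD, and 603 and 658 FPKM in ADPKD+MMPP, with 6 of 7 tested called higher and *Mrc1* lower in ADPKD against WT, and *Cx3cr1* at 0 in ADPKD+MMPP replicate 1. The 6 pan-leukocyte markers, led by *Cd53*, summed to 36.3 and 23.4 FPKM in WT, 53.0 and 54.0 FPKM in ADPKD, and 66.6 and 57.2 FPKM in ADPKD+MMPP, and 5 were called higher in ADPKD. The macrophage sum followed the order of *Itgax* across the groups through *C1qa*, *C1qb* and *C1qc*, which were called higher after treatment. *Csf1r*, *Adgre1* and *Cd68* were called lower. The higher markers have 88.7% or more of their exon bases in no more than 1 annotated transcript, and the lower ones 33.3% or less. *Itgax* has 71.8%. Changes after treatment rose with this percentage across 12375 protein-coding genes, with a Spearman rho of 0.649. The part of that trend in the split of the macrophage markers was not tested. Nor was the part of the leukocyte markers in the higher *Itgax*, *Itgam* and *Itgb2* of ADPKD. The markers of T cells, led by *Trbc2*, summed to between 1.05 and 5.89 FPKM, with *Cd3g* and *Cd3e* each at 0 in 1 WT library. Those of B cells, led by *Cd79a*, summed to between 1.84 and 4.60 FPKM, with *Cd79b* at 0 in ADPKD+MMPP replicate 1. Those of neutrophils, led by *S100a9*, summed to between 2.03 and 15.1 FPKM, with *Ly6g* at 0 in the WT and ADPKD+MMPP libraries and *Retnlg* at 0 in ADPKD replicate 1.

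Set beside each other, the 10 epithelial integrin genes (*Itga1*, *Itga2*, *Itga3*, *Itga6*, *Itgav*, *Itgb1*, *Itgb4*, *Itgb5*, *Itgb6* and *Itgb8*) summed to 482 and 501 FPKM in WT, 461 and 497 FPKM in ADPKD, and 204 and 205 FPKM in ADPKD+MMPP. The 8 leukocyte integrin genes (*Itga4*, *Itgad*, *Itgae*, *Itgal*, *Itgam*, *Itgax*, *Itgb2* and *Itgb7*) summed to 10.7 and 8.79 FPKM in WT, 12.7 and 17.6 FPKM in ADPKD, and 14.6 and 17.5 FPKM in ADPKD+MMPP. The remaining 8, of mesenchyme, muscle and platelets, summed to 205 and 182 FPKM in WT, 77.8 and 84.4 FPKM in ADPKD, and 14.6 FPKM in each ADPKD+MMPP library. The leukocyte genes therefore held 1.54% and 1.27% of all integrin FPKM in WT, 2.31% and 2.94% in ADPKD, and 6.25% and 7.36% in ADPKD+MMPP. Between ADPKD and ADPKD+MMPP the leukocyte sums overlapped, and the larger percentage went with the lower sums of the other integrin genes. All these sums are of FPKM as deposited.

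Of the 10 epithelial genes, 4 were called higher in ADPKD against WT and *Itgb5* lower, with a median log2 fold change of 0.57. Of the 5 leukocyte genes tested, *Itgam*, *Itgax* and *Itgb2* were called higher and *Itga4* and *Itgb7* lower, with a median of 1.10. *Itgam* passed the filter through the ADPKD libraries alone, so this count and median rest partly on a gene that had to be high there. Of the 7 mesenchymal, muscle and platelet genes tested, none was called higher and *Itga8* and *Itga9* were called lower, with a median of -0.33. Of all genes tested, 14.2% were called higher and 12.5% lower. The lists differ in size and in level, and the difference between them was not tested.

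**Figure D2:**
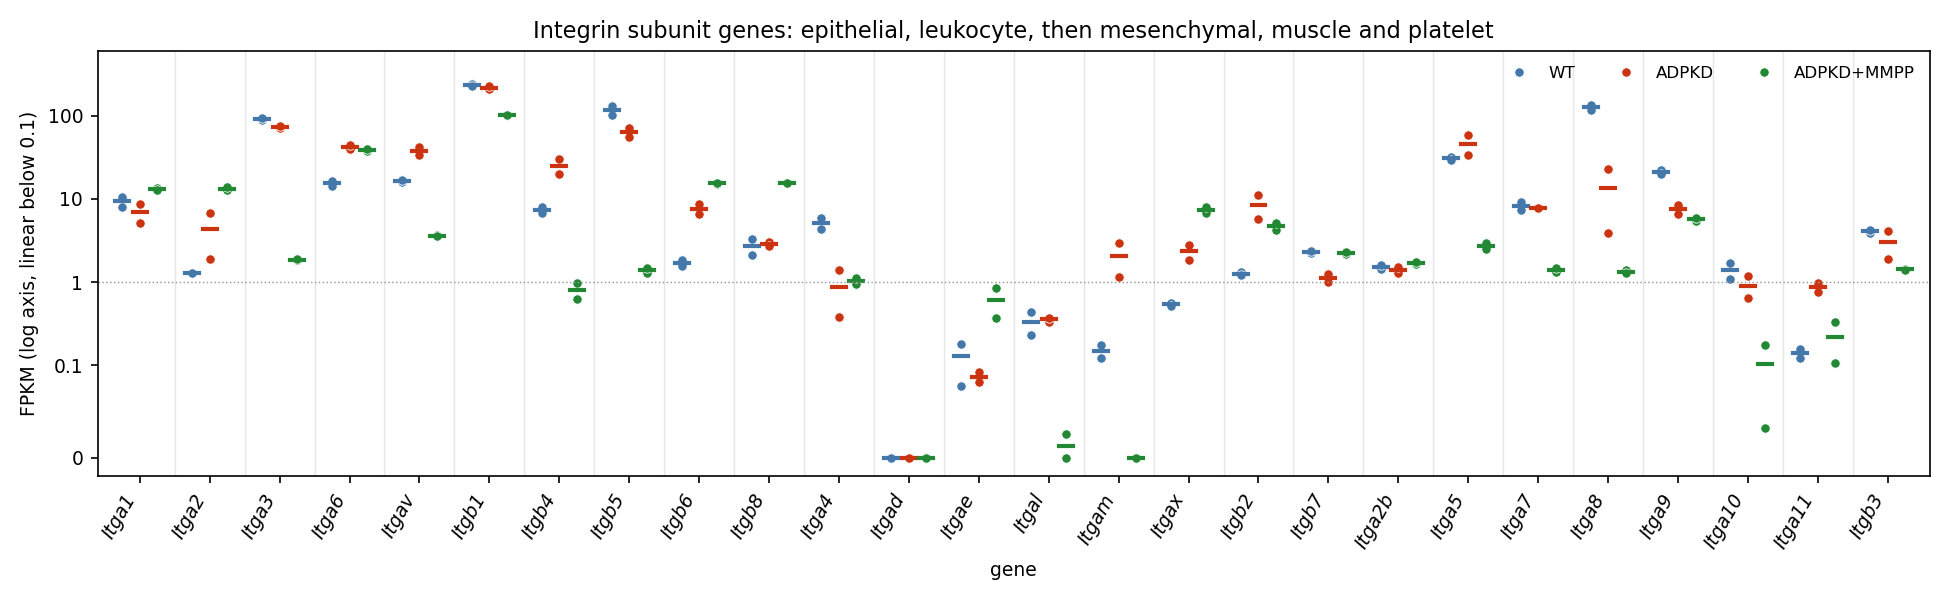
FPKM (log axis, linear below 0.1) of the 26 integrin subunit genes in WT, ADPKD and ADPKD+MMPP, with a point for each library and a bar at the mean of the 2 libraries of a group, ordered as epithelial, leukocyte and then mesenchymal, muscle and platelet genes. *Itga4*, *Itga8*, *Itga9*, *Itgb5* and *Itgb7* are lower and *Itga6*, *Itgav*, *Itgb4*, *Itgb6*, *Itgb2*, *Itgam* and *Itgax* higher in ADPKD than in WT. *Itga3* and *Itgb5* are below 2 FPKM in ADPKD+MMPP.

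In ADPKD+MMPP against ADPKD, which asks what treatment does in the diseased kidney, *Lamb1*, *Lamb3*, *Itga3*, *Itga5*, *Itgav*, *Itgb4* and *Itgb5* were far lower, and *Itgb8*, *Itgax* and *Itgb6* were higher. Of the 33 members tested, 8 were called higher, where 27.9% of genes were, and 17 were called lower, where 43% were. The median log2 fold change was -0.65 over the members and -0.36 over all genes tested. Changes of this kind reached most of the transcriptome, and they followed gene structure. The measure used was the unique exon share, the percentage of exon bases of a gene covered by no more than 1 annotated transcript. Across the 33 members, the log2 fold change after treatment rose with this share with a Spearman rho of 0.745, and across 12375 protein-coding genes with a rho of 0.649. For ADPKD against WT the rho was -0.157 over the members and 0.0451 over the protein-coding genes. Genes are not independent replicates, and all points of a comparison share the same libraries.

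Among the 14 members with a share under 40%, none was called higher after treatment and 13 were called lower, where 5.16% and 73.9% of the 4398 protein-coding genes with such a share were. The exception was *Itgb2*. The losses included *Itgb5*, with a log2 fold change of -4.74 (standard error 0.19, limma adjusted p = 2.34e-05), *Itga3* with -4.70 (standard error 0.11, limma adjusted p = 1.95e-05) and *Itgb4* with -3.84 (standard error 0.22, limma adjusted p = 5.31e-05). The median log2 fold change in this class was -2.26 over the members and -1.36 over the genes. Further members of the class that were called lower included *Itga5* at -3.62, *Itgav* at -3.06, *Lamb3* at -2.31, *Itga8* at -2.21, *Itgb1* at -1.08, *Itga10* at -0.78, *Itgb3* at -0.68 and *Lamc3* at -0.61, along with *Itgam*, for which no fold is given against values of 0. The calls of *Itgb3* and *Lamc3* did not pass adjustment (limma adjusted p = 0.0588 and 0.0516) and were also lost with median ratios and with no filter.

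Among the 8 members with a share from 40% to under 60%, *Itgb6* and *Itgb7* were called higher and *Itga7*, *Lama2*, *Lama3* and *Lamb1* lower, where 17.5% and 48.3% of 2691 genes were. *Lamb1* had the largest loss of all members, with a log2 fold change of -5.38 (standard error 0.16, limma adjusted p = 1.96e-05). The other calls were *Itgb6* at 0.93, *Itgb7* at 0.62, *Itga7* at -1.88, *Lama3* at -1.34 and *Lama2* at -1.24. The median in this class was -0.69 over the members and -0.55 over the genes. Among the 11 members with a share of at least 60%, *Itga1*, *Itga2*, *Itgax*, *Itgb8*, *Lama1* and *Lamb2* were called higher and none lower, where 56.8% and 12.5% of 5286 genes were. *Itgb8* had a log2 fold change of 2.08 (standard error 0.18, limma adjusted p = 0.000183) and *Itgax* of 1.34 (standard error 0.18, limma adjusted p = 0.000938). *Itga2* had 1.57, *Lama1* 1.29, *Itga1* 0.87 and *Lamb2* 0.60. *Lama1* passed the filter through the ADPKD+MMPP libraries alone and had to be highest there, though it stayed called with no filter. The median was 0.60 over the members and 0.78 over the genes, so the members of this class lay slightly below its genes.

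**Figure D3:**
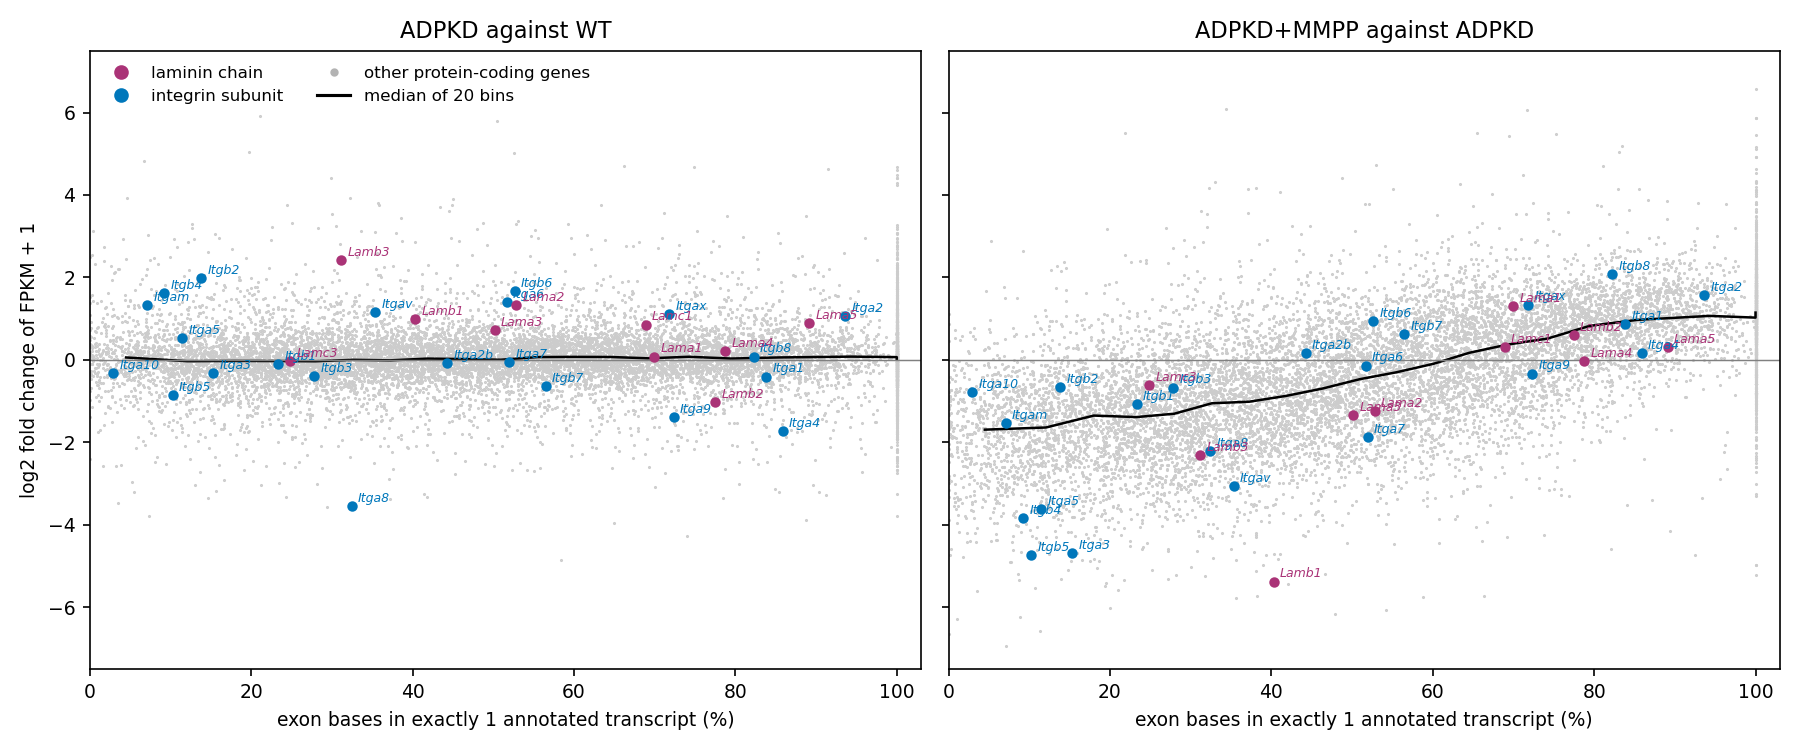
Log2 fold change of FPKM + 1 against the unique exon share (%), for ADPKD against WT and ADPKD+MMPP against ADPKD, with laminin and integrin members in colour, other protein-coding genes in grey and the median of 20 bins as a line. The line is flat near 0 for ADPKD against WT and climbs with the share after treatment, where *Lamb1*, *Itgb5* and *Itga3* lie well below it.

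The members were therefore also compared in a fit of the 12375 protein-coding genes alone, after each library was centred on its median within 20 bins of that share. Of the 25 calls after treatment, 15 kept their direction and call. The 5 kept higher were *Itgb6*, *Itgb7*, *Itgb8*, *Itgax* and *Lama1*, of which *Lama1* had passed the filter through the treated libraries alone. The 10 kept lower included *Itga3*, *Itga5*, *Itga7*, *Itgav*, *Itgb4*, *Itgb5*, *Lama2*, *Lamb1* and *Lamb3*. The centred log2 fold change was -4.27 for *Lamb1* (standard error 0.15, limma adjusted p = 2.58e-05), -2.92 for *Itga3* (standard error 0.13, limma adjusted p = 3.45e-05) and 1.58 for *Itgb6* (standard error 0.17, limma adjusted p = 0.000362). Calls were lost for *Itga1*, *Itga2*, *Itga8*, *Itgam*, *Itgb1*, *Lama3* and *Lamb2*, and *Itga10*, *Itgb3* and *Lamc3* were then called in the opposite direction. For *Itga10* and *Lamc3* the shift from centring exceeded any loss possible at their ADPKD levels, so their turn was fixed and measures no change. New calls appeared for *Itga2b* and *Itgb2*, higher, and for *Itga4*, *Itga9*, *Lama4* and *Lama5*, lower. The same fit kept all 19 calls of ADPKD against WT. Other scalings also ended or added calls after treatment. *Itga1*, *Itgb7* and *Lamb2* were no longer called with a common sum of FPKM, and *Itga8*, *Itga10*, *Itgb3*, *Lama3*, *Lamb2* and *Lamc3* with quantile normalization. A common sum added lower calls for *Itga9* and *Itgb2*, and quantile normalization added higher calls for *Itga2b* and *Itga4*, the latter opposite to its centred call. Centring removes a trend shared by all genes and does not separate treatment from the handling of the libraries.

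By integrin list, 4 of the 10 epithelial genes were called higher after treatment and 5 lower, 2 of the 5 leukocyte genes higher and 1 lower, and none of the 7 mesenchymal, muscle and platelet genes higher and 5 lower. Of all genes tested, 27.9% were called higher and 43% lower, so the epithelial counts lay near those of genes in general. Centred, 2 epithelial genes were higher and 4 lower, 3 leukocyte genes higher and 1 lower, and 3 mesenchymal, muscle and platelet genes higher and 3 lower, where 4187 of the 12375 protein-coding genes were higher and 3028 lower. These last 3 higher calls include *Itga10*, whose direction was fixed by the size of the shift.

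For the genes that had changed in ADPKD, the values after treatment stood as follows on FPKM as deposited. *Lamb3* at 1.46 and 1.14 FPKM and *Lama2* at 1.14 and 0.911 FPKM lay near their WT levels, and *Lamb2* at 79.4 and 80.6 FPKM lay between WT and ADPKD. *Itgb7* had fallen in ADPKD and stood at its WT level. *Lamb1*, *Itgav* and *Itgb4* had risen in ADPKD and lay below their WT levels after treatment. *Itgam* had risen and was then listed at 0. *Lama5*, *Lamc1*, *Itga6*, *Itgax*, *Itgb2* and *Itgb6* had risen in ADPKD and were still above WT, and *Itga4*, *Itga8*, *Itga9* and *Itgb5* had fallen in ADPKD and were still below WT. Centring changed part of this. The centred log2 fold change of ADPKD+MMPP over WT was 1.47 for *Lamb3* and 0.72 for *Lama2*, both called higher, and -1.26 for *Lamb2*, called lower. For *Lamb3* the shift from centring exceeded any loss possible at its WT level, so its direction was fixed and measures no change. For *Itgb4* it was -0.26 against -2.22 before, and for *Lama5* 0.0045 against 1.205, and both calls were lost. *Itgav* went from -1.90 to -0.69 and kept its call.

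In ADPKD+MMPP against WT, 9 members were called higher, where 30.1% of genes were, and 15 were called lower, where 43.8% were. The median log2 fold change was -0.43 over the members and -0.36 over all genes. The higher calls were *Itga2*, *Itga6*, *Itgax*, *Itgb2*, *Itgb6*, *Itgb8*, *Lama1*, *Lama5* and *Lamc1*, led by *Itga2* at 2.63 (standard error 0.44, limma adjusted p = 0.00217) and *Itgb6* at 2.59 (standard error 0.16, limma adjusted p = 5.10e-05). The lower calls included *Itga3*, *Itga4*, *Itga5*, *Itga7*, *Itga8*, *Itga9*, *Itga10*, *Itgav*, *Itgb1*, *Itgb3*, *Itgb4*, *Itgb5*, *Lamb1* and *Lamc3*, led by *Itga8* at -5.77 (standard error 0.69, limma adjusted p = 0.000556), *Itgb5* at -5.59 (standard error 0.19, limma adjusted p = 1.64e-05) and *Itga3* at -5.01 (standard error 0.11, limma adjusted p = 1.47e-05). Centring by unique exon share kept 18 of the 24 calls. It lost those of *Itgb1*, *Itgb3*, *Itgb4* and *Lama5*, turned *Itga10* and *Lamc3*, and added *Itga2b*, *Itgb7*, *Lama2* and *Lamb3* as higher and *Itga1*, *Lama4* and *Lamb2* as lower. It also added *Itgam*, whose listed 0 was only shifted by the centring. The turns of *Itga10* and *Lamc3* measure no change either, since that shift exceeded any loss possible at their WT levels. It also exceeded any loss possible at the WT levels of *Lamb3* and *Itgb2*, so their centred direction was fixed as well. This comparison shares its libraries with the other comparisons and the rho with exon structure was 0.543 over the members.

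Genes that act with laminins and integrins were read from lists. Of the 19 basement membrane partners tested, 4 were called higher and 2 lower in ADPKD against WT, with a median log2 fold change of 0.21, near the shares of 14.2% and 12.5% of all genes tested. *Agrn*, a heparan sulfate proteoglycan that binds laminin, had 40.6 and 43.4 FPKM in WT, 123 and 148 FPKM in ADPKD, and 25.4 and 24.7 FPKM in ADPKD+MMPP, and it was highest in ADPKD. *Tinag*, a tubule basement membrane antigen, rose by 2.14 on the log2 scale in ADPKD and *Frem2*, of the Fraser complex, by 1.602, while *Ntn4*, a laminin-related netrin, had -2.04 and *Tinagl1* -0.68. After treatment 6 of the 19 were called higher, among them *Ntn4*, *Fras1* and *Col4a4*, and 11 lower, among them *Sparc*, *Tinagl1* and *Npnt*, the nephronectin that binds α8β1, where 27.9% and 43% of all genes were.

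Of the 4 non-integrin laminin receptors, *Bcam* and *Sdc1* were called higher in ADPKD against WT, where 14.2% of all genes tested were. After treatment *Bcam* was called higher and *Sdc1* lower, where 27.9% and 43% of all genes were. *Bcam*, the Lutheran receptor for the α5 chain, had 222 and 283 FPKM in WT, 516 and 535 FPKM in ADPKD, and 782 and 822 FPKM in ADPKD+MMPP. Its groups did not overlap and stood in the same order as those of *Lama5*, with a log2 fold change of ADPKD over WT of 1.06 (standard error 0.15, limma adjusted p = 0.00738). That order is of FPKM as deposited, and when centred *Lama5* was called lower in ADPKD+MMPP against ADPKD, at -0.77. Of the 3 hemidesmosome partners tested, *Plec*, which links α6β4 to keratin, was called higher in ADPKD with 0.74 (standard error 0.21, limma adjusted p = 0.0528). *Plec*, *Dst* and *Cd151* were all called lower after treatment, each with an exon share under 40%. Of all genes tested 43% were called lower there, and of protein-coding genes with such a share 73.9% were. *Col17a1*, the fourth, stayed under 1 FPKM.

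Among the 32 tested genes of the integrin adhesome, the proteins that gather at the cytoplasmic tails, 5 were called higher and 8 lower in ADPKD against WT, where 14.2% and 12.5% of all genes were, with a median log2 fold change of -0.19. The kindlin *Fermt1* had 1.67, the kinase *Src* 1.66 and the kinase *Ptk2b* 1.62, and the tensins *Tns2* and *Tns3* had -1.81 and -1.33 and the adaptor *Lims2* -1.36. After treatment 2 of them, *Tln1* and *Lims2*, were called higher and 22 lower, where 27.9% and 43% of all genes were, with a median of -1.61. *Actn4*, *Src* and *Tns1* led the losses, with -4.60, -4.32 and -4.27 on the log2 scale and unique exon shares of 35.1%, 10.8% and 35.1%. Genes with high shares were called lower as well, among them *Tns3* at 89.4%, *Rsu1* at 82.0%, *Arhgef7* at 69.1% and *Lims1* at 68.3%.

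Of the 16 tested genes for other integrin ligands, 8 were called higher and 3 lower in ADPKD against WT, where 14.2% and 12.5% of all genes were, with a median log2 fold change of 0.55. *Spp1*, which encodes osteopontin, a ligand of αv, α8 and α9 integrins, had 291 and 284 FPKM in WT, 4875 and 3984 FPKM in ADPKD, and 1197 and 1370.3 FPKM in ADPKD+MMPP. *Fn1*, which encodes fibronectin, had 4.30 and 4.06 FPKM in WT, 34.6 and 35.7 FPKM in ADPKD, and 0.942 and 0.816 FPKM in ADPKD+MMPP. Both ligands were highest in ADPKD, with log2 fold changes against WT of 3.93 and 2.81 (standard errors 0.15 and 0.11, limma adjusted p = 0.000831 for each). *Thbs1*, a thrombospondin, also rose, by 1.82, and *Icam2*, *Mfge8* and *Emilin1* had -1.99, -1.14 and -0.97. After treatment *Ccn1* was called higher and 10 lower, where 27.9% and 43% of all genes were. *Fn1*, *Fbn1* and *Tnc* led the losses at -4.27, -3.73 and -3.21, with unique exon shares of 31.0%, 16.7% and 12.1%.

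Promoter windows from RefSeq (GRCm38.p6) were matched to 23 of the 37 members by symbol, and 26 windows were read, each placed around a start annotated by RefSeq, which for some genes, such as *Itga9* and *Lamb3*, lies far inside the gene as GENCODE draws it. Since the study concerns the cAMP-responsive factor CREB, the windows were searched on both strands for its full CRE site TGACGTCA, for the CRE core TGACG, which is part of the full site, and for the AP-1 site TGANTCA. The full CRE was in no member window and in 1.79% of all 32851 windows. The CRE core was in windows of *Itga9*, *Itgb1*, *Itgb6*, *Lama5* and *Lamb2* and in 20.8% of all windows, and the AP-1 site in windows of *Itga3*, *Itga9* and *Itgax* and in 7.81% of all windows. A match describes letters and not a site in use.

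The windows of *Lama5* and *Lamb2* are shown because each holds a CRE core while the genes changed in opposite directions in ADPKD against WT. The *Lama5* window is chr2:180225810-180226109 on the minus strand and the *Lamb2* window is chr9:108479612-108479911 on the plus strand. Each is written 5′ to 3′ along its gene, and capitals mark the CRE core, which reads CGTCA where it lies on the other strand.
Lama5: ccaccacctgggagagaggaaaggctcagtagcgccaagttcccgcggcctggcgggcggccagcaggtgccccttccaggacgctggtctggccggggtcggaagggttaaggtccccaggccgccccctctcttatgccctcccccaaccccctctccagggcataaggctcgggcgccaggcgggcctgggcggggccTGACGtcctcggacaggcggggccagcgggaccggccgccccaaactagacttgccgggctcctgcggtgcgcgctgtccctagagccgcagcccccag
Lamb2: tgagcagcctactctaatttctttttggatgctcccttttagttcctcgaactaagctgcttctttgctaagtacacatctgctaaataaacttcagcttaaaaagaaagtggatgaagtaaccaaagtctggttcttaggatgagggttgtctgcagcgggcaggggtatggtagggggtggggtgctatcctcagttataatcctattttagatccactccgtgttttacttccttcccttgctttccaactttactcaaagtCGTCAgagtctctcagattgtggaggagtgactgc
The core lies upstream of the RefSeq start in *Lama5* and downstream of it in *Lamb2*.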

How the data were processed

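The authors aligned reads with HISAT2 2.1.0, counted genes with featureCounts 1.6.0 and deposited FPKM per library. They ran DESeq2 on counts, which FPKM are not, so it was not used. How FPKM were computed and the annotation release are not given in the sources used here. GENCODE vM21 was matched to 53186 symbols. Read numbers, and from them depth, were recovered from FPKM and exon length (tolerance 0.02), and 3 reads or fewer count as the floor. Replicates differed beyond what sampling of reads allows (mean chi-square 24.4 for WT, 92.1 for ADPKD, 4.26 for ADPKD+MMPP). limma 3.58.1 in R 4.3.3 was fitted to log2(FPKM + 1) of the 14862 genes that passed the filter, in a single fit over 6 libraries, with Benjamini-Hochberg adjustment over all of them. Alternatives concerned the pseudocount, filter, scaling, variance trend, thresholds, groups fitted, a replicate block, centring by unique exon share and left-out libraries. The steps were tested on simulated data. From each pathway list, up to 3 called genes per direction were named, by size of change, with libraries that do not overlap and a mean of 5 FPKM or more in a group compared. Members and lists were chosen with earlier results of these data known. Lists came from general knowledge and received no test as a set. Counts cover all members, and a member counted in them is not reported here by itself.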

Additional observations from a re-analysis of the deposited data

How the results depend on the processing

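In ADPKD against WT, all 19 calls were kept in a fit without the ADPKD+MMPP libraries, and counts stayed at 13 to 16 higher and 6 to 7 lower with any library left out, beside 1862 to 2473 and 1671 to 2397 of 14862 genes. At a fold of 2 or more, 10 were higher and 4 lower, without *Itgb5*, *Itgb7*, *Lama5*, *Lamb1* and *Lamc1*, and of all genes 1016 and 935 of 14862 were. A group left with a single library was assumed to vary like the others. After treatment the scaling mattered more. The median log2 fold change of all genes in ADPKD+MMPP against ADPKD was -0.36, and it became -0.55 with a common sum, -0.21 with median ratios, 0.10 with quantile normalization. Centred by unique exon share, in a fit of the 12375 protein-coding genes alone, it was 0.15. Members called higher there numbered 8, and 5 with a common sum and 4 at a fold of 2 or more, while all genes called higher went from 27.9% to 3308 and 2801 of 14862. In ADPKD+MMPP against WT they numbered 9, and 14 with quantile normalization and 15 when centred, while of all genes 30.1% were called higher, and 5482 of 14862 with quantile normalization and 4441 of 12375 when centred. The centred 15 include *Itga10*, *Itgam*, *Itgb2*, *Lamb3* and *Lamc3*, whose direction was fixed by the shift from centring. Of these, *Itgb2* was called higher without centring as well. The cause of the other moves was not tested.

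Where a call was made in either setting, directions turned as follows. Centred, ADPKD+MMPP against ADPKD gave *Itga1* -0.24, *Itga10* 1.335, *Itga4* -0.95, *Itgam* 0.57, *Itgb1* 0.57, *Itgb2* 1.285, *Itgb3* 1.05, *Lama5* -0.77, *Lamb2* -0.21 and *Lamc3* 1.03, and quantile normalization gave *Lamc3* 0.038. Centred, ADPKD+MMPP against WT gave *Itga1* -0.68, *Itga10* 0.87, *Itgam* 1.78, *Itgb1* 0.44, *Itgb3* 0.60, *Itgb7* 0.65, *Lama4* -0.65 and *Lamc3* 0.96, and quantile normalization gave *Itgb7* 0.62. The *Itgam* values come from shifting a listed 0 and measure no change. The centred values of *Itga10* and *Lamc3* measure none either, because the shift exceeded any loss possible at their ADPKD or WT levels. Values without a call in either setting turned as well, such as *Itga6* at 0.50 when centred and *Lama4* at 0.58 and *Itga9* at 0.14 with quantile normalization in ADPKD+MMPP against ADPKD.

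With a replicate block, 14 members were higher and 6 lower in ADPKD against WT, adding *Itga2*, and ADPKD+MMPP against ADPKD had 8 higher and 18 lower, adding *Itgb2*, while ADPKD+MMPP against WT kept 9 and 15. In the same fits 2151 and 1904, 4165 and 6430, and 4502 and 6536 of 14862 genes were higher and lower. The differences between replicates 1 and 2 correlated between groups with r of 0.129, -0.00796 and 0.0137, so the samples share only a number.

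In ADPKD+MMPP against ADPKD, leaving out a library left 6 to 8 members higher and 12 to 17 lower, beside 3961 to 4246 and 6079 to 6447 of 14862 genes, and *Itgb3*, *Lamc3*, *Itga1*, *Itga8*, *Itga10* and *Lama3* were among the calls lost.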
